A study of Mus musculus with 9 samples.

Results

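The genes described here are 30 mouse genes that encode enzymes of purine and pyrimidine nucleotide synthesis. The list was drawn up by place in the pathway, with earlier results of these data known, and its rule used no measured value. Of these 30, 29 were named by a probe set of the array and tested, among 11644 genes tested in all, and Impdh2 was not analysed here. Each gene was represented by 1 probe set, the brightest of those that named it alone. The members fall into de novo purine synthesis (11 tested of 12), de novo pyrimidine synthesis (5), deoxynucleotide supply (7), and salvage and nucleotide kinases (6).

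The study asked how an activated form of β-catenin changes thymocytes before and after they turn into lymphoma. It used 9 arrays, 1 C57Bl/6 mouse each. Both control arrays came from mice of genotype R26NC/NC CD4Cre- and the 3 pre-transformed arrays from R26NC/NC CD4Cre+ mice, called R26-βcat. Both groups were 6 weeks old, and their CD8+CD4+ (double-positive, DP) thymocytes were sorted to a purity above 98%. The 4 tumour arrays came from R26NC/NC CD4Cre+ mice with thymic lymphoma at 28, 26, 23 and 21 weeks (tumours 1 to 4). Tumours were taken whole and unsorted, and held at least 95% DP cells according to the labels. All 3 groups thus carry the R26NC allele, and only Cre, driven from the Cd4 gene in T-lineage cells, separates controls from the rest. RNA of the sorted cells (0.1 µg) was labelled with an amplification kit, and RNA of the tumours (2.5 µg) by the standard protocol of the array's maker. In every comparison with tumours, transformation therefore cannot be told apart from age, sorting and labelling protocol.

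Values are MAS5 signals, a linear intensity scaled so that each array has a mean of 100 once the extreme 2% at either end are set aside. They compare a gene between arrays and not a gene with another gene. Median signals over all probe sets were 9.9 to 15.2. Summed signals of 8 DP thymocyte markers were 22024 to 23327 in controls, 23252 to 25211 in pre-transformed cells and 9527 to 13688 in tumours. Cd4, Cd8a and Cd8b1 were bright on every array. In the test described below, 7 of the 8 DP markers were called lower in tumours than in pre-transformed cells, where 31% of all genes were. Only Cd4 did not pass. Cd8a fell 1.53-fold, Cd8b1 1.67-fold, Cd3e 3.89-fold, Rag1 3.58-fold, Rag2 8.06-fold and Dntt 3.93-fold. Ptcra, the pre-T-cell receptor gene, fell from 214 to 372 on sorted arrays to 2.7 to 6.8 in tumours. Summed signals of 11 myeloid markers were 143 to 268 on sorted arrays and 170 to 3396 in tumours, with tumour 2 the lowest (Lyz2 signal 3.1). For B-cell markers the sums were 217 to 273 on sorted arrays and 15.4 to 451 in tumours. Stromal and endothelial markers gave 163 to 238 and 481 to 1831, and erythroid markers 1.4 to 5.7 and 13.1 to 71.4. Igfbp7 made up most of the stromal sum in tumours (292.5 to 1545, against 0.2 to 6.8 on sorted arrays). Of the 11 stromal and endothelial markers, 8 were dim on every tumour array. Cd79b made up most of the sorted B-cell sum (195.8 to 253.9) and read 1.3 to 108.5 in tumours. Cd79a and Ms4a1 went the other way in tumours 1, 3 and 4 (67.9 to 269.7, against 1.5 to 8.9 on sorted arrays). The part of these cells in the results was not tested beyond a fit with tumour 2 alone. In bulk RNA, fewer cells of a type and less RNA per cell cannot be told apart. Xist was dim (11.8 to 12.6) and Y-linked genes were bright in pre-transformed 1 and tumour 4, which were thus from male mice.

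Purine nucleotides are built on ribose phosphate: PRPP synthetase makes the activated sugar, the enzymes from Ppat to Atic assemble IMP, and further enzymes turn IMP into AMP or GMP. Pyrimidine nucleotides are built as a free ring first, by Cad and Dhodh, joined to PRPP by Umps, and made into CTP by CTP synthase. Ribonucleotide reductase converts ribonucleotides to the deoxy form for DNA, Dut and Tyms lead to thymidylate, and salvage kinases such as Tk1 and Dck recover free nucleosides. Thymocytes divide in bursts before the DP stage, most DP cells are small and resting, and nucleotide synthesis is known to rise in dividing cells.

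Between pre-transformed and control cells none of the 29 members passed the test (limma, Benjamini-Hochberg adjusted p under 0.05 over all genes), where 1.63% of all genes were called. At an unadjusted p under 0.05, 1 member was higher and 8 were lower, where 9.7% of all genes were higher and 7.87% lower. Between tumours and pre-transformed cells, 22 members rose, 3 fell and 4 did not pass, where 23.9% of all genes rose and 31% fell. The median change of the members was a log2 of 1.30, or 2.46-fold, against -0.12 for all genes. By the limma estimates 21 of the 22 rose by at least 2-fold, as did 1848 of all 11644 genes. Nme4 is among the 21, but it was dim in sorted cells and its rise is given below as at least 1.53-fold. Between tumours and controls, which share the tumour arrays with that comparison, 19 members rose, 3 fell and 7 did not pass, where 20.5% of all genes rose and 25.2% fell. The 19 that rose against controls also rose against pre-transformed cells. Rrm2, Tk1 and Uck2 passed against pre-transformed cells and not against controls, a difference that was not tested. With the mean of their probe sets, Rrm2 (log2 0.86, adjusted p = 0.0357) and Uck2 (log2 0.54, adjusted p = 0.0266) passed against controls too. The 3 that fell in both were Prps2, Impdh1 and Ctps2. With every array centred on its median, 11 members rose and 5 fell between tumours and controls. The shares of all genes under that setting were not computed, and their median change was then a log2 of -0.46. Between tumours and pre-transformed cells the members' median stood 1.42 above that of all genes on the log2 scale, and 1.41 after quantile normalization; centring an array cannot move this value.

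**Figure D1:**
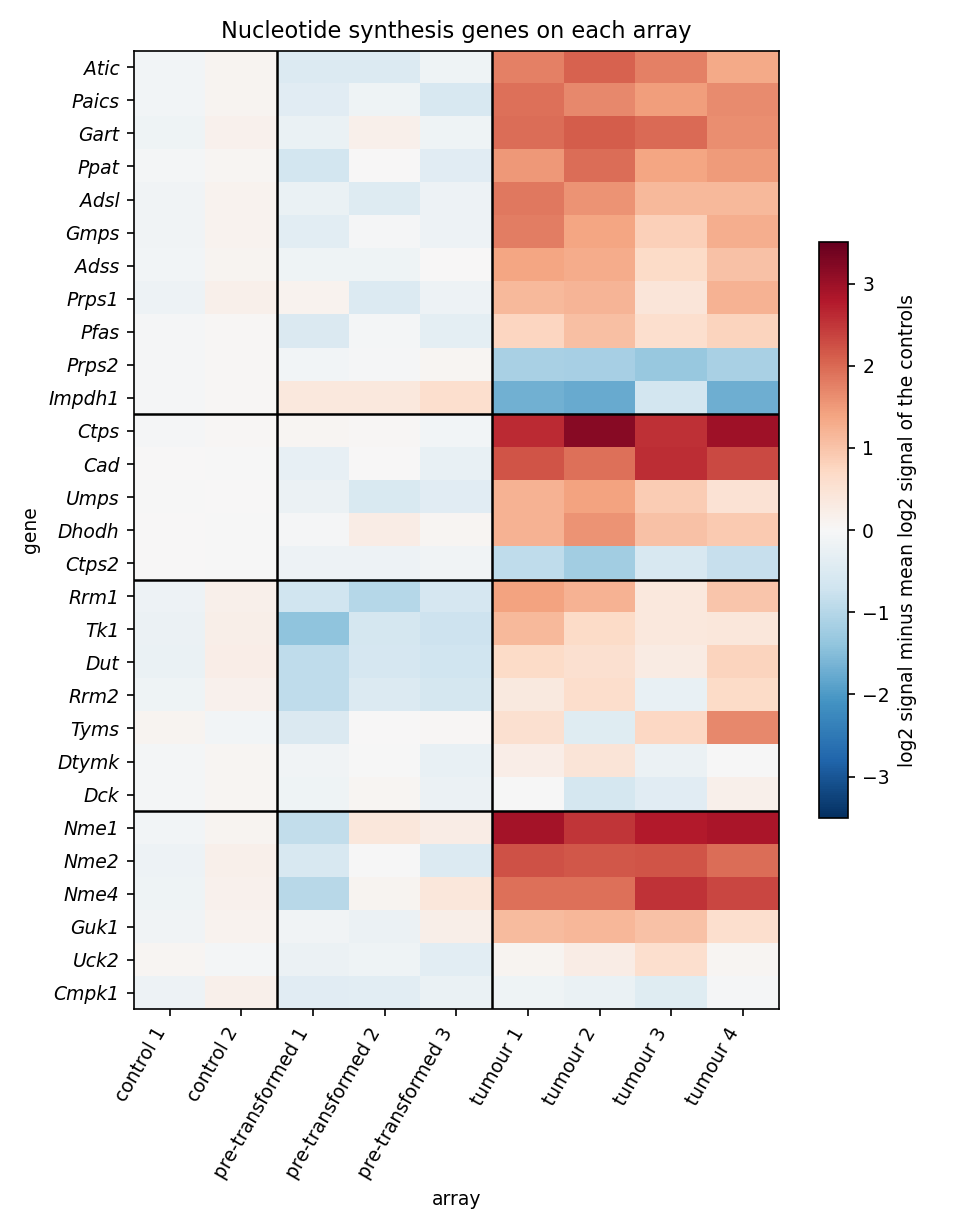
Log2 signal of the 29 members (vertical axis) on each of the 9 arrays (horizontal axis), minus the mean log2 signal of both controls, in colour from blue (lower) to red (higher). Horizontal lines separate de novo purine, de novo pyrimidine, deoxynucleotide, and salvage and kinase genes, and most rows are pale in sorted cells and red in all 4 tumours, apart from the blue Prps2, Impdh1 and Ctps2.

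Of the 11 de novo purine genes tested, 9 rose and 2 fell in tumours against pre-transformed cells, with the same counts against controls. Against controls, Pfas lost its call without control 1 (limma adjusted p = 0.0756), without control 2 (0.0527) and with median centring (0.269). Prps1 lost it without control 1 (0.115) and with median centring (0.141), and Adss with median centring (0.0595). With the mean of probe sets, Prps2 (0.0694) and Gmps (0.987) did not pass against controls. The median change was a log2 of 1.52 against pre-transformed cells. All 11 had tumour arrays that did not overlap with pre-transformed arrays, as had 25 of all 29 members (86.2%), where 57% of all genes did not overlap. The 9 that rose cover every step from PRPP synthesis to IMP that was measured, and an enzyme on each of the branches to AMP and GMP. The 2 that fell, Prps2 and Impdh1, act at PRPP synthesis and on the branch to GMP. On that branch only Gmps rose, and its rise depended on the probe set.

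Atic, which carries out the final steps to IMP, read 383.3 and 436.3 in controls, 292.7, 295.9 and 367.2 in pre-transformed cells, and 1382.5, 1715.8, 1376.2 and 1029.5 in tumours 1 to 4. Every tumour lay far above every sorted sample, and the rise was 4.27-fold (log2 2.10, SE 0.18, limma adjusted p = 2.24e-05). Paics, which adds carbon dioxide and aspartate to the growing ring, read 754.1 and 848 in controls, 609.9, 721.6 and 547 in pre-transformed cells, and 3036.4, 2565.3, 2196.2 and 2512.6 in tumours. Its signal was likewise separate in all 4 tumours, 4.12-fold higher (log2 2.04, SE 0.15, adjusted p = 1.04e-05). Gart, a protein with several catalytic activities of the ring assembly, read 184.6 and 224.6 in controls, 172.2, 231.9 and 184.7 in pre-transformed cells, and 790.4, 885, 809.8 and 626.6 in tumours. Both sorted groups of Gart overlapped, and tumours were 3.97-fold higher (log2 1.99, SE 0.17, adjusted p = 2.34e-05).

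Ppat, the amidotransferase of the first committed step, rose 3.80-fold (log2 1.93, SE 0.21, adjusted p = 5.77e-05), from a geometric mean of 122 in pre-transformed cells to 465 in tumours. A Ppat probe set without a cross-hybridisation suffix, dim in sorted cells, gave a log2 of 3.09 (adjusted p = 0.000103). Adsl, which splits fumarate off in separate reactions of the pathway, rose 3.28-fold. Pfas, which adds a nitrogen from glutamine, rose 2.14-fold. On the branches after IMP, Gmps, which makes GMP, rose 2.86-fold, and Adss, which starts the branch to AMP, rose 2.29-fold. The adjusted p of these 4 genes was 9.77e-05 to 0.000466. Gmps depended on the probe set: its brightest one gave the rise, a dimmer one gave a log2 change of -1.61, and averaging all 3 left a log2 of 0.35 with an adjusted p of 0.237.

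Because these genes moved together, the promoter windows of RefSeq (GRCm38.p6, 250 bases before to 50 after a start site) were searched for words known to be bound by regulators of growth. Windows were found for 27 of the 29 members, and Pfas and Dhodh had none. Each is printed 5′ to 3′ in the direction of its gene. The 4 windows shown belong to the 3 purine genes that hold a searched word and rose, and to Nme1, among the largest rises of all members. Capitals mark the E-box CACGTG, a word bound by Myc and related factors, or, in Ppat, the E2F word TTTCCCGC on the other strand.
Paics, chr5:76951052-76951351, plus strand: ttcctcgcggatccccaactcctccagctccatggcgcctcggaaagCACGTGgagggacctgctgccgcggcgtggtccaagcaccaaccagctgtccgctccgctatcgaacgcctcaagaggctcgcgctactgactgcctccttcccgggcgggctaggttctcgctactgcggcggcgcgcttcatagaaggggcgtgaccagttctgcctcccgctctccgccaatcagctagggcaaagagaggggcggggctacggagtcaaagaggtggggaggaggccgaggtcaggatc
Ppat, chr5:76951529-76951828, minus strand: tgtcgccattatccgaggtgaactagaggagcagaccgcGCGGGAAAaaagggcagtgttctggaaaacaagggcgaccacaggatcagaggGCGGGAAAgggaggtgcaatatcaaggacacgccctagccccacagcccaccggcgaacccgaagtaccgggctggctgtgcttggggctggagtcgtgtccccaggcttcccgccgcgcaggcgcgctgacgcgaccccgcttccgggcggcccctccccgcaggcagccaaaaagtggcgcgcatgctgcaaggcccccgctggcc
Atic, chr1:71556906-71557205, plus strand: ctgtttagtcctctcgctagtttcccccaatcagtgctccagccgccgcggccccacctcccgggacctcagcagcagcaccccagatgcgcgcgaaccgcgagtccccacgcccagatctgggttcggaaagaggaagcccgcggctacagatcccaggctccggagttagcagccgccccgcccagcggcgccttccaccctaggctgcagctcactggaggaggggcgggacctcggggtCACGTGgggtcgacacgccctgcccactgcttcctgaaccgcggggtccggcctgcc
Nme1, chr11:93968223-93968522, minus strand: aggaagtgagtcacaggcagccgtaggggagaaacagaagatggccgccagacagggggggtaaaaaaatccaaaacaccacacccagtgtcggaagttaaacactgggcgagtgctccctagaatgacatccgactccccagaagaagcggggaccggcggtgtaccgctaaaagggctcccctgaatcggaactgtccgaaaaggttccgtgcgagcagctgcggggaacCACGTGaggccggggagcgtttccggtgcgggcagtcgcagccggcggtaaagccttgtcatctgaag

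Paics and Ppat are head-to-head neighbours on chromosome 5, with start sites 276 bases apart on opposite strands. The E-box begins 7 bases before the start site in Atic, 18 before it in Nme1 and 203 before it in Paics. CACGTG, which reads the same on both strands, occurred in 5 of 27 members (18.5%; Atic, Dtymk, Nme1, Paics and Tyms), against 8.09% of all 27025 genes with a window and 8.91% of protein-coding genes. By windows of equal length the shares were 17.6% and 7.15%. The E2F words TTTGGCGC, TTTCCCGC, TTTGCCGC and TTTCGCGC, on either strand, occurred in 2 members (7.41%; Ppat and Prps2), against 2.6% of all genes and 3.29% of protein-coding genes. CTTTGAA or CTTTGAT, a word of TCF and LEF factors through which β-catenin acts, occurred in none of 27 members on either strand, against 9.88% of all genes and 8.78% of protein-coding genes. Member windows had a median of 61% G and C and 21 CpG pairs, those of all genes 52.7% and 7, and those of protein-coding genes 56.3% and 13, and the part of base composition in these shares was not tested. Of the 5 members with CACGTG, Dtymk and Tyms did not pass the test between tumours and pre-transformed cells. Of the 2 members with an E2F word, Ppat rose and Prps2, whose window is not shown, fell. A match is a description of letters and shows no binding.

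The first step of the pathway is made by isozymes, Prps1 and Prps2, which moved apart. Prps1 read 359.5 and 458.3 in controls, 446.2, 288.7 and 358.1 in pre-transformed cells, and 895.4, 932, 549 and 942 in tumours. Prps2 read 2182.1 and 2335.4 in controls, 2108.4, 2200 and 2377.6 in pre-transformed cells, and 1034.2, 1009.4, 897.2 and 1025.5 in tumours. Tumours lay above all sorted samples for Prps1 and below all of them for Prps2, and tumour 3 was the lowest tumour for both. Against pre-transformed cells Prps1 rose 2.26-fold (log2 1.18, SE 0.23, limma adjusted p = 0.00176) and Prps2 fell 2.25-fold (log2 -1.17, SE 0.11, adjusted p = 3.01e-05). The Prps2 minus Prps1 difference within an array changed by a log2 of -2.35, or 5.08-fold (exact permutation test, two-sided, p = 0.0286, the smallest that 35 splits allow, adjusted p = 0.0429 over 3 pairs). The Prps2 probe sets disagreed: a dimmer one gave a log2 of 0.68, and the mean of all 3 gave -0.34 (adjusted p = 0.145). With means of probe sets the change within the pair was -1.51, or 2.85-fold (exact permutation test, adjusted p = 0.0429). Both genes lie on chromosome X, and without the male tumour 4 the changes were 1.10 and -1.19 on the log2 scale. Without the male pre-transformed 1 they were 1.33 and -1.21.

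Impdh1, an isozyme of the enzyme that commits IMP to GMP, read 447.4 and 480.1 in controls, 593.3, 599.9 and 690.9 in pre-transformed cells, and 145.2, 135.6, 295.5 and 140.7 in tumours. The 3 groups did not overlap: pre-transformed cells were highest, tumours lowest, and tumour 3 read above the other 3 tumours. Between pre-transformed and control cells the log2 difference was 0.43 (SE 0.11, limma adjusted p = 0.0996), which did not pass and was the only positive one at an unadjusted p under 0.05. The log2 change in tumours was -1.89 against pre-transformed cells (SE 0.26, adjusted p = 0.000232) and -1.45 against controls (adjusted p = 0.00321). Without tumour 3 the change against pre-transformed cells was -2.16.

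Of the 5 de novo pyrimidine genes, 4 rose and Ctps2 fell, against pre-transformed cells and against controls alike. Against controls, Umps lost its call without control 1 (adjusted p = 0.0758), without control 2 (adjusted p = 0.0622) and with median centring (adjusted p = 0.153), Dhodh with median centring (adjusted p = 0.0605), and Ctps2 without control 1 (adjusted p = 0.0531). Cad, the protein that carries the first reactions of the ring, read 88.8 and 88.2 in controls, 73, 90.1 and 73.4 in pre-transformed cells, and 409.1, 336.5, 534.2 and 442.2 in tumours. Sorted groups overlapped and every tumour was higher than every sorted sample, a 5.41-fold rise (log2 2.44, SE 0.19, limma adjusted p = 1.44e-05). Umps, which joins the ring to PRPP and makes UMP, read 115.3 and 117.5 in controls, 100.7, 81 and 88.1 in pre-transformed cells, and 271.5, 306.4, 215.7 and 165.1 in tumours. Its tumours were separate from sorted cells but spread widely among themselves, and the rise was 2.60-fold (log2 1.38, SE 0.22, adjusted p = 0.00062), or a log2 of 2.08 with the mean of its probe sets. Dhodh, the mitochondrial dehydrogenase of the ring, rose 2.13-fold (log2 1.09, adjusted p = 0.00124), and its probe set without a cross-hybridisation suffix, dim in pre-transformed cells, gave a log2 of 2.05 (adjusted p = 0.00019).

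CTP synthase also has isozymes, and these moved apart more than the PRPP synthetases. Ctps read 116.1 and 122.4 in controls, 125.7, 123.5 and 110.8 in pre-transformed cells, and 727.2, 1094.1, 697.9 and 926.5 in tumours. Sorted groups were nearly level, and tumours were 7.07-fold higher than pre-transformed cells (log2 2.82, SE 0.18, limma adjusted p = 7.56e-06). Ctps2 read 301.1 and 299.4 in controls, 267.8, 263.1 and 277.4 in pre-transformed cells, and 162.5, 129.9, 202.3 and 171 in tumours. All tumours lay below all sorted samples, and the fall was 1.64-fold (log2 -0.71, SE 0.17, adjusted p = 0.00558). The Ctps2 minus Ctps difference within an array changed by a log2 of -3.53, or 11.6-fold (exact permutation test, two-sided, p = 0.0286, adjusted p = 0.0429 over 3 pairs). Ctps2 lies on chromosome X too, and its change was -0.73 without tumour 4 and -0.72 without pre-transformed 1.

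**Figure D2:**
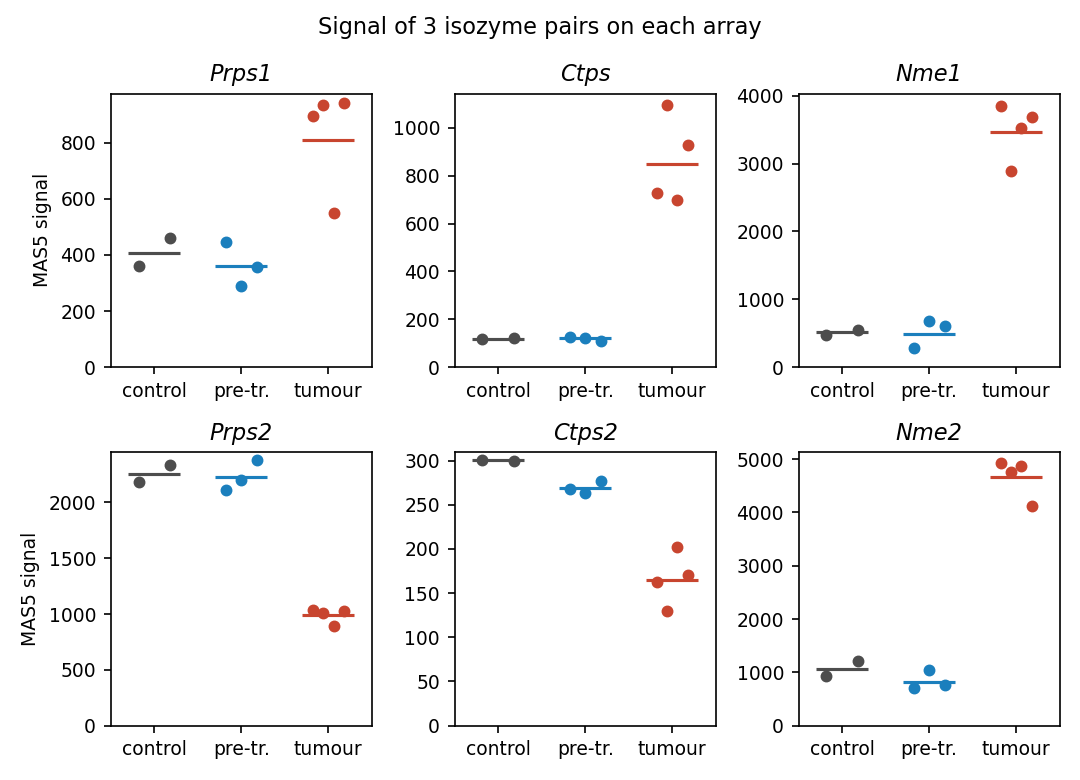
MAS5 signal (vertical axis, from 0) of 3 isozyme pairs in control, pre-transformed (pre-tr.) and tumour samples, 1 point per array, with lines at geometric means. Prps1 and Ctps were higher in all 4 tumours while Prps2 and Ctps2 were lower, and Nme1 and Nme2 were both higher.

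Of the 7 deoxynucleotide genes, 4 rose in tumours against pre-transformed cells (Rrm1, Rrm2, Dut and Tk1), and 3 did not pass. Against controls only Rrm1 and Dut passed. The same 4 genes were the lowest members in pre-transformed cells against controls, with log2 differences of -0.91 to -0.67, and their pre-transformed arrays did not overlap with the controls. Of all 29 members, 13 (44.8%) did not overlap in that comparison, where 36.3% of all genes did not. None of the 4 passed, and 26 of 29 members had a negative difference there, as had 46.7% of all genes.

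Rrm1, the large subunit of ribonucleotide reductase, read 769.4 and 971.2 in controls, 533, 435 and 571.3 in pre-transformed cells, and 2290.4, 2001.4, 1119 and 1691.5 in tumours. Pre-transformed cells were lowest and tumours highest with no overlap. The difference between pre-transformed and control cells was a log2 of -0.76 (SE 0.15, limma adjusted p = 0.0503), and tumours were 3.37-fold above pre-transformed cells (log2 1.75, adjusted p = 0.000189). Against controls Rrm1 rose 1.99-fold (adjusted p = 0.0123), a call lost with median centring (adjusted p = 0.161) and without control 1 (adjusted p = 0.118). The mean of its probe sets, 1 of them dim in sorted cells, gave larger rises, a log2 of 3.70 from pre-transformed cells and 3.03 from controls. Rrm2, the small subunit, read 2145.7 and 2671.5 in controls, 1293.3, 1713.2 and 1551.2 in pre-transformed cells, and 3018.6, 3682.6, 1996.7 and 3789.3 in tumours. Tumour 3 lay below both controls, the other 3 tumours above them. Its log2 difference before transformation was -0.67 (adjusted p = 0.0689), the rise from pre-transformed cells was 2.01-fold (adjusted p = 0.00335), and the log2 difference from controls was 0.34 (adjusted p = 0.284). The difference from controls passed without tumour 3 (log2 0.54, adjusted p = 0.0289), and the rise from pre-transformed cells was a log2 of 1.70 with the mean of its probe sets.

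Dut, which removes dUTP and yields dUMP, read 1118.4 and 1514.8 in controls, 702.4, 871 and 799.9 in pre-transformed cells, and 2083.3, 1920.1, 1588.8 and 2212.9 in tumours. The order of groups was that of Rrm1, again without overlap. The log2 difference before transformation was -0.72 (SE 0.15, limma adjusted p = 0.0606) and tumours rose 2.46-fold from pre-transformed cells (adjusted p = 0.000127). Tk1, the thymidine kinase of dividing cells, read 217.7 and 286 in controls, 93.9, 163.9 and 152.1 in pre-transformed cells, and 546.6, 396.3, 320.1 and 326.7 in tumours. It followed the same order, with a log2 difference of -0.91 before transformation (SE 0.24, adjusted p = 0.108) and a 2.92-fold rise from pre-transformed cells to tumours (adjusted p = 0.00068). Against controls its log2 difference was 0.64 (adjusted p = 0.096). Without pre-transformed 2, Rrm1, Rrm2 and Dut passed between pre-transformed and control cells. The call of Dut against controls was lost in several other settings, such as quantile normalization (log2 0.32, adjusted p = 0.147).

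Tyms, thymidylate synthase, was close to background: it read 45.3 and 39.1 in controls, 29.4, 42.1 and 43 in pre-transformed cells, and 61.9, 31.1, 69.4 and 135.7 in tumours. Groups overlapped through tumour 2, and the log2 difference of 0.79 (SE 0.43, limma adjusted p = 0.138) did not pass. It passed without tumour 2 (log2 1.15, adjusted p = 0.0128). Dtymk, which phosphorylates thymidylate, read 1066.3 and 1194.1 in controls, 1026.5, 1108.6 and 951.1 in pre-transformed cells, and 1314.1, 1529.1, 977.8 and 1112.4 in tumours. Its groups overlapped and the log2 difference was 0.24 (adjusted p = 0.22), but averaging its 3 probe sets left a log2 of 0.79 that passed, with an adjusted p of 0.00756. Dck, the deoxycytidine kinase of salvage, read 2238.2 and 2448 in controls, 2101.9, 2449.3 and 2025.5 in pre-transformed cells, and 2340.5, 1517.5, 1775.5 and 2650.2 in tumours. Tumours spanned both sides of the sorted range, with a log2 difference of -0.11 (adjusted p = 0.633).

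**Figure D3:**
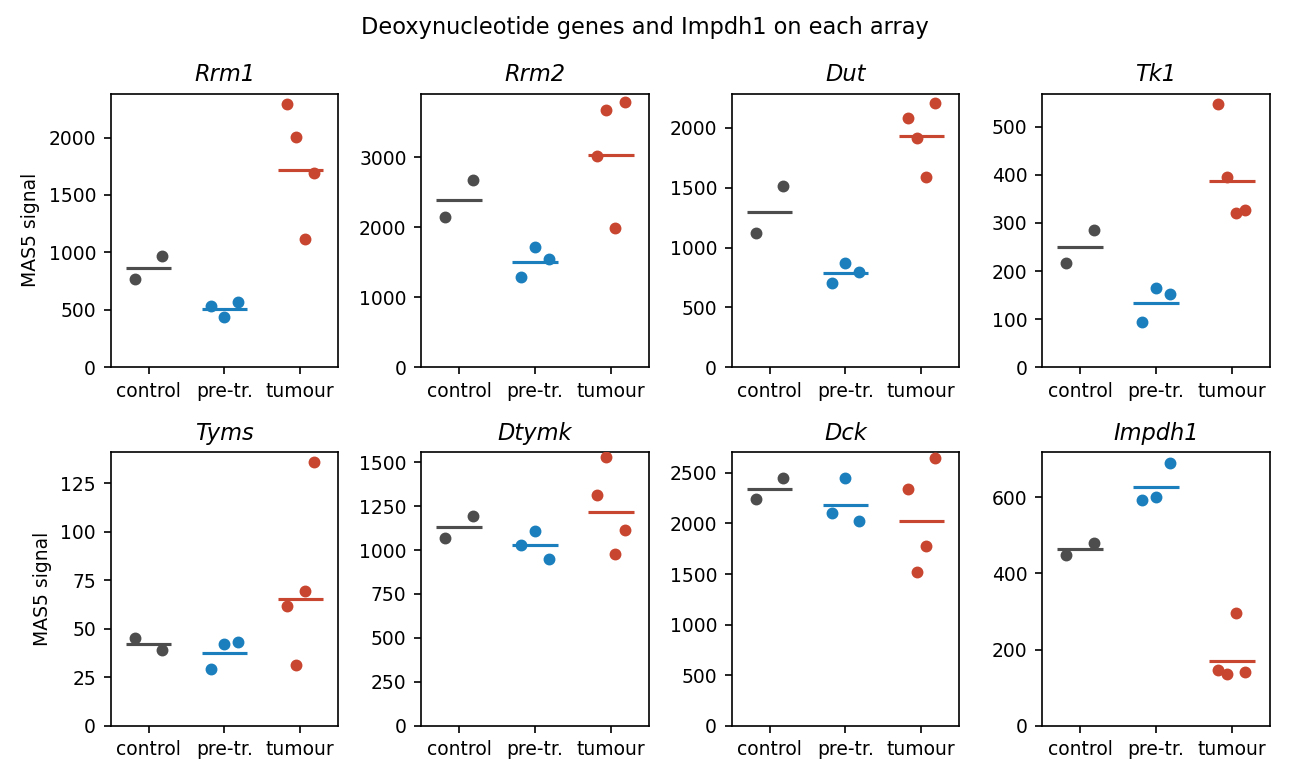
MAS5 signal (vertical axis, from 0) of the 7 deoxynucleotide genes and Impdh1 in control, pre-transformed (pre-tr.) and tumour samples, 1 point per array, with lines at geometric means. Rrm1, Rrm2, Dut and Tk1 were lowest in the 3 pre-transformed samples, Tyms, Dtymk and Dck overlapped between groups, and Impdh1 was highest in pre-transformed samples.

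Of the 6 salvage and kinase genes, 5 rose and Cmpk1 did not pass against pre-transformed cells. Nme1 and Nme2, the main nucleoside diphosphate kinases, which make triphosphates from diphosphates, had changes among the largest of all members. Nme1 read 479.8 and 546.5 in controls, 284, 679.7 and 612.8 in pre-transformed cells, and 3855.8, 2896.2, 3519.9 and 3686.3 in tumours. Pre-transformed cells spread on both sides of the controls, and tumours were 7.07-fold higher than pre-transformed cells (log2 2.82, SE 0.27, limma adjusted p = 3.3e-05). Nme2 read 927.6 and 1206.3 in controls, 714.4, 1038.7 and 760.4 in pre-transformed cells, and 4922.9, 4761.6, 4875.1 and 4126.1 in tumours. Tumours were close to each other and 5.64-fold higher (log2 2.50, SE 0.16, adjusted p = 7.56e-06). The Nme2 minus Nme1 difference within an array changed by a log2 of -0.33 (exact permutation test, two-sided, p = 0.371), which did not pass. Both genes are neighbours on chromosome 11. The Nme1 probe set used carries the suffix x, which marks possible binding of related transcripts, so that signal may be shared between them. That of Nme2 carries the suffix a, which marks transcripts of the same gene.

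Nme4, the mitochondrial nucleoside diphosphate kinase, read 13.1 and 16.4 in controls, 7.5, 15.6 and 19.4 in pre-transformed cells, and 55.7, 56, 85.1 and 74.7 in tumours. Sorted samples were below the 65th percentile of their arrays (39.4 to 44.6), so that the rise was given as at least 1.53-fold (limma adjusted p = 0.00051). Guk1, the guanylate kinase, rose 2.01-fold (adjusted p = 0.00203). Uck2, which salvages uridine and cytidine, rose 1.42-fold (adjusted p = 0.0193), a call lost without pre-transformed 1 (adjusted p = 0.0514) or pre-transformed 3 (adjusted p = 0.0807) and with each array centred on its median. Cmpk1, which phosphorylates CMP and UMP, read 1259.5 and 1611.7 in controls, 1077.7, 1096.7 and 1218 in pre-transformed cells, and 1273.2, 1205.8, 1054 and 1376.3 in tumours. Its tumour and sorted ranges overlapped, with a log2 difference of 0.11 from pre-transformed cells (adjusted p = 0.505).

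**Figure D4:**
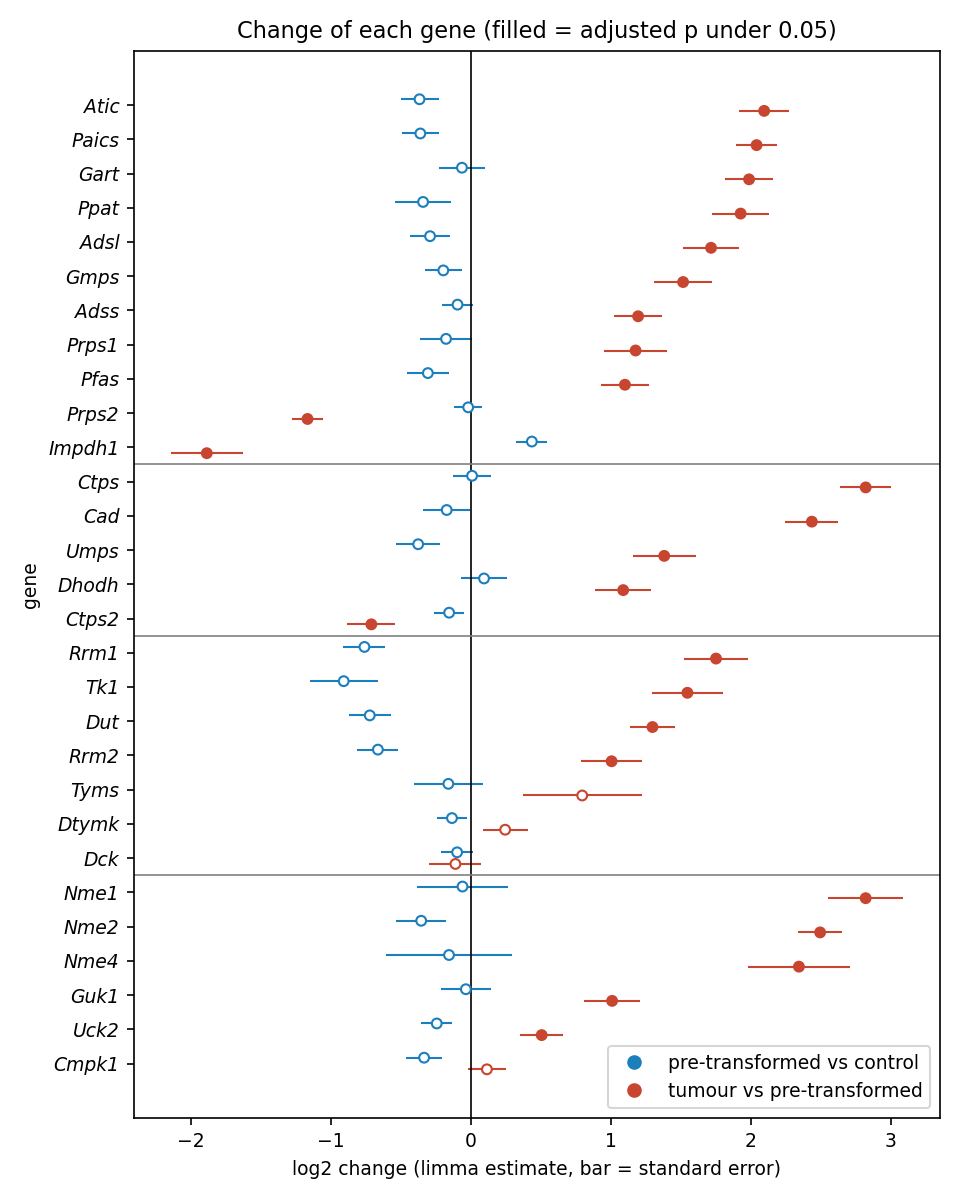
Log2 change of each of the 29 members (horizontal axis, limma estimate, bars are standard errors) for pre-transformed against control cells (blue) and tumours against pre-transformed cells (red), with filled points where the adjusted p was under 0.05. No blue point is filled, 22 red points lie filled to the right of 0 and 3 to the left.

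Among the 4 tumours, the median SD of log2 signal was 0.28 over the 29 members and 0.42 over all 11644 genes, a description with no test. These values were 0.13 and 0.12 in controls, and 0.17 and 0.19 in pre-transformed cells. Members were bright, with median signals of 790 to 932 in tumours. Genes were not matched for brightness, so the lower spread cannot be read as a trait of these genes. Of the 22 members that rose, tumour 3 was the lowest tumour for 11 (50%), against 36.3% of all 2785 genes that rose. Tumours 1 and 2 were the highest for 8 each (36.4%), against 29.3% and 32.5% of all genes that rose. Tumour 2 was the lowest tumour for 10 of 11 myeloid markers, all but Itgam (113.2 there and 23.4 to 57.7 in the other tumours), and for 3 of 5 B-cell markers, all but Pax5 and Ebf1. Markers were read here without the filter on dim probe sets. The Ebf1 probe set kept by the filter was lowest in tumour 2 (2.7, against 5.1 to 20.6 in the other tumours). Tumour 2 was also the lowest for 8 of 11 stromal and endothelial markers. With tumour 2 as the only tumour, all 25 members called against pre-transformed cells kept their direction, 20 of them with a change at least as large. These 25 had been called with tumour 2 among the arrays, so this is no independent check. The matching share over all genes was not computed, and the part of other cells was not tested. The fit with tumour 2 alone assumes the lone tumour to vary like the other groups.

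Lists of other genes of the pathway were read in the same fits. Of 15 folate and one-carbon genes tested, which supply carbon units for purines and thymidylate, 9 rose and 2 fell in tumours against pre-transformed cells. Mthfd1, a cytosolic enzyme of folate carbon transfer, rose 7.59-fold, from 99.2 to 122.8 in pre-transformed cells to 711.3 to 976.7 in tumours (limma adjusted p = 6.96e-06). Shmt2, the mitochondrial serine hydroxymethyltransferase, rose 9.57-fold (adjusted p = 8.6e-06), and its cytosolic counterpart Shmt1 rose at least 10.5-fold from a dim signal (adjusted p = 7.56e-06). All 3 fold changes exceeded the 7.07-fold of Ctps and Nme1. Ggh, which trims folate polyglutamates, fell at least 2.34-fold to a dim signal (adjusted p = 0.00112). Aldh1l1, a folate dehydrogenase, was also called lower (adjusted p = 0.00779), but its signal was dim in all 3 groups.

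Of 36 other salvage and turnover genes tested, 16 rose and 5 fell. Adk, which phosphorylates adenosine, read 94.3 and 133.4 in controls, 55, 79.9 and 49.4 in pre-transformed cells, and 1350, 1618, 1371 and 1093 in tumours. Its tumours stood far apart from sorted cells, 22.4-fold above pre-transformed cells (log2 4.48, SE 0.22, limma adjusted p = 5.04e-06). The probe sets used for Adk and Shmt2 carry the suffix x, which marks possible binding of related transcripts. Other probe sets of these genes were not compared. Dctpp1, which degrades dCTP, rose 8.56-fold (adjusted p = 7.56e-06), and Dctd, which deaminates dCMP, rose at least 2.62-fold from a dim signal (adjusted p = 1.31e-05). Ada, adenosine deaminase, was among those that fell (log2 -0.62, adjusted p = 0.0187), as was Ampd1, AMP deaminase, at least 4.12-fold to a dim signal (adjusted p = 0.0125). Of 3 nucleoside transporters tested, Slc29a1 rose 17.2-fold (adjusted p = 1.09e-05), Slc29a3 fell (log2 -0.60, adjusted p = 0.00777) and Slc29a4 did not pass. Among these lists, Xdh, xanthine dehydrogenase of purine breakdown, was the only gene called between pre-transformed and control cells, where 1.63% of all genes were called. It read 28 and 26.3 in controls, 59.2, 65.7 and 64.5 in pre-transformed cells, and 184.6, 1.5, 172.2 and 61.2 in tumours. Its rise before transformation is given as at least 1.55-fold (limma adjusted p = 0.0273), since the controls were below the 65th percentile of their arrays.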

How the data were processed

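The deposited values are linear signal intensity for 45101 probe sets, made with MAS5 per the submitters' processing notes, with its version not given in the sources used. Signals of 0 were set to 0.1 and log2 was taken, with no further normalization. Probe sets at or above their array's median on at least 2 arrays were kept (26421), and each gene took the kept probe set that named it alone and had the highest mean log2 signal. limma 3.58.1 in R 4.3.3 (lmFit, eBayes with trend) was fitted on 5 arrays for pre-transformed against control cells and on all 9 for tumours, and p-values were adjusted over 11644 genes by the Benjamini-Hochberg method. The method was tested on simulated data in which 200 genes changed and all groups had the same spread. In the measured data tumours spread more and far more genes were called, so that test does not cover the tumour comparisons. Differences between isozymes within an array were compared by exact permutation tests, adjusted over 3 pairs, since the Impdh pair could not be formed. Group signals are geometric means. A group is called dim where its mean lay below the geometric mean of its arrays' 65th percentiles, and a fold from there is given as at least the ratio to that level.

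Members and lists were chosen with earlier results of these data known. Signals on every array were given for the 3 members with the largest change in each step group, members that fell or did not pass, and isozyme pairs, and Rrm2 was added after its values were seen. From each other list the 3 genes with the smallest p were named, with any gene called before transformation; Ggh, Aldh1l1, Ada and Ampd1 were added after their values were seen. Each sample is 1 mouse. Equal replicate numbers belong to different mice, and the labels used name no pairs, so no pairing was used. Deviations of same-numbered samples correlated at -0.02 to 0.08 across genes, which cannot show whether mice were related. Plots were made in Python 3.11.15 with matplotlib 3.10.9.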

Additional observations from a re-analysis of the deposited data

Results flagged for a closer look

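In 3 of the 29 members checked, 1 of the 4 tumours, each time tumour 3, stood far from the others by Dixon's criterion. It was taken on log2 signals, and chance meets it in about 1 in 20 groups. The share over all genes was not computed, so the count cannot be read as a trait of these members or of tumour 3. For Prps1, tumour 3 read 549 against 895.4 to 942, a gap of 0.906 of the whole log2 range. For Impdh1, tumour 3 read 295.5 against 135.6 to 145.2, a gap of 0.912 of the log2 range. For Prps2, tumour 3 read 897.2 against 1009.4 to 1034.2, a gap of 0.8292 of the log2 range, just past the critical value, and on the linear signals the gap was 0.819, which does not reach it. Without tumour 3 the log2 changes against pre-transformed cells were 1.36, -2.16 and -1.12.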

How the results depend on the processing

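Between tumours and pre-transformed cells, 23 to 27 members passed over all alternatives (24 to 26 when leaving out 1 array), and between tumours and controls 15 to 25, lowest without control 1 (15; 20 without control 2). Between pre-transformed and control cells, where none passed, 2 passed with the stricter filter and 1 with median centring. With centring on kept probe sets (added after seeing the data) 1 passed, and with array weights 4 (Impdh1, Rrm1, Rrm2 and Dut). Without probe sets of the suffixes a, s and x, 1 of 25 passed. The shares of all genes under these alternatives were not computed. With the replicate block 3 passed (Rrm2, Dut and Tk1), although the numbers do not pair the mice; counts in the tumour comparisons stayed at 25 and 22. Leaving out 1 array gave 0 to 3, with 3 without pre-transformed 2. The mean of probe sets turned Gmps between tumours and controls to a log2 of -0.01 (-0.00622). Without 1 array, the Prps pair changed by -2.54 to -2.20 and the Ctps pair by -3.73 to -3.30, with adjusted p of 0.1 to 0.15, since fewer splits cannot reach the threshold. Tumour 2 as the only tumour was chosen after seeing the data. The cause of other changes was not tested. A small number of arrays, 2 of them controls, limits the precision, and dim signals (Tyms, Nme4) are limited by background.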
